A study of Mus musculus with 2 samples.

Results

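Glycolysis and the response to low oxygen were followed through 32 genes of the 32285 genes counted in single cells of mouse colorectal tumours. The members were taken by symbol, not by value: 19 genes that carry glucose from uptake to lactate export, and 13 genes of the hypoxia response. They filled 33 rows of the count tables, because Aldoa was listed under 2 gene identifiers whose counts were added. The tumours came from mice given azoxymethane and dextran sulphate sodium (AOM/DSS), a carcinogen followed by an agent that injures the colon lining. There were 2 groups, whole-body STK25 knockout mice (STK25 wKO) and wild-type mice (WT), with tumours pooled within each group and dissociated with trypsin before droplet capture and sequencing from the 3′ end of transcripts. The series text also names a sort by mCherry signal, and which cells were collected, the number, age and strain of the mice and the form of the deleted allele were not given in the sources used here. There was 1 library per group, so no test between STK25 wKO and WT was possible: intervals cover counting error only, and cells are not replicates of mice.

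Glycolysis splits glucose into pyruvate in the cytosol and yields ATP without oxygen. Glucose enters through transporters such as SLC2A1, is trapped by hexokinases, committed by phosphofructokinase and cleaved by aldolase, and the lower enzymes harvest ATP. Lactate dehydrogenase then turns pyruvate into lactate, which leaves the cell through SLC16A3. When oxygen is low, the prolyl hydroxylases EGLN1 and EGLN3 work less, the transcription factor subunit HIF1A escapes degradation, and it raises most glycolytic genes together with the hypoxia genes described here. The colon is well known for a steep oxygen gradient, lowest at the surface next to the lumen, and tumours and inflamed mucosa are often hypoxic. Much of the control acts on the HIF1A protein, which RNA counts do not show.

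The library labelled STK25 wKO held 13883 cells after filtering and the library labelled WT 12270 cells, with median depths of 2091 and 1383 UMIs per cell (a UMI, unique molecular identifier, marks a captured transcript). The 2 libraries shared 230 cell barcodes. Stk25 itself was present in both, at 127 CPM (UMIs of a gene per 1e6 UMIs of the cells summed; 95% exact Poisson interval 124 to 130) in the library labelled STK25 wKO and 118 CPM (115 to 122) in the library labelled WT, so the count of Stk25 did not check the labels and groups are called by their labels throughout. Malat1, a nuclear RNA, took a smaller share of UMIs in the library labelled STK25 wKO in all 12 named cell classes (0.750% against 1.11% in epithelial cells). UMIs of the neutrophil genes S100a8, S100a9 and Retnlg took a larger share there in every class, 0.0366% against 0.00601% in epithelial cells and 0.123% against 0.00657% in macrophages. The part of either in the results below was not tested except where a value is given.

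Epithelial cells and myeloid cells carried the highest summed levels of the 19 glycolysis members. In epithelial cells the sum was 8583 CPM in the library labelled STK25 wKO and 7910 CPM in the library labelled WT, a log2 ratio of 0.12 (0.11 to 0.13). The gap was wider outside the epithelium. Macrophages held 7926 CPM in the library labelled STK25 wKO, against 4925 CPM in the library labelled WT (log2 ratio 0.69, 0.64 to 0.73). Neutrophils held 6853 CPM in the library labelled STK25 wKO, against 3948 CPM in the library labelled WT (0.80, 0.71 to 0.88). T or NK cells had 4419 CPM in the library labelled STK25 wKO and 2472 CPM in the library labelled WT (0.84, 0.80 to 0.87). Fibroblasts had 3624 CPM in the library labelled STK25 wKO and 2393 CPM in the library labelled WT (0.60, 0.55 to 0.65), and blood endothelial cells 3889 and 2564 CPM in the same order (0.60, 0.53 to 0.68). The sum was thus higher in the library labelled STK25 wKO in every named class, least so in epithelial cells. A list of 12 genes that cell dissociation is known to induce moved with it in some classes. Its sum had a log2 ratio of 0.71 in T or NK cells (11 of 12 genes higher), 0.61 in B cells (11 of 12) and 0.54 in dendritic cells (10 of 12). It was 0.50 in pericytes or smooth muscle (11 of 12), 0.37 in macrophages (9 of 12) and 0.23 in neutrophils (8 of 12). Of all genes, 41.1% to 51.1% were higher in these classes. The ratio of the list was −0.06 in fibroblasts, 0.09 in blood endothelial cells and −0.18 in epithelial cells. In lymphatic endothelial cells it was −0.78 (0 of 12 higher, where 55.7% of all genes were). The part of these genes in the glycolysis values was not tested.

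**Figure D1:**
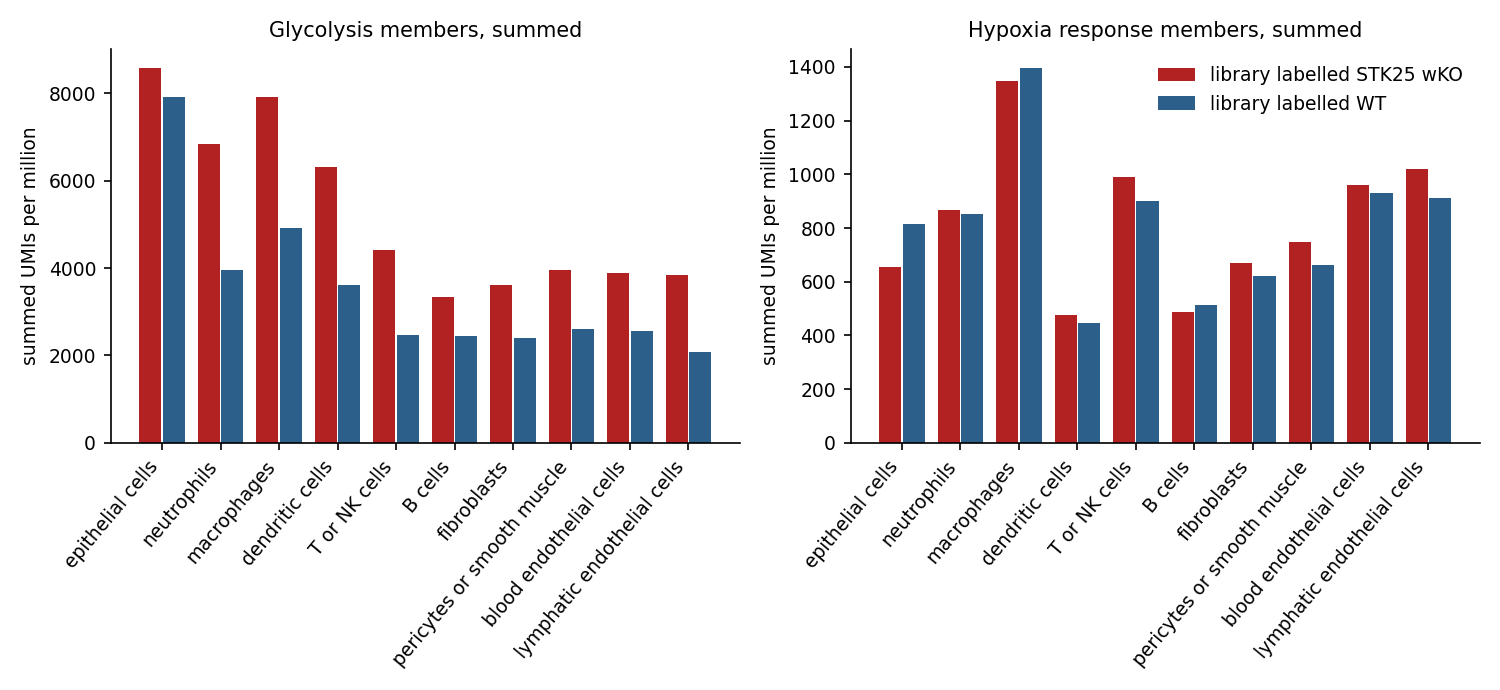
Summed levels of the 19 glycolysis members (left) and the 13 hypoxia response members (right) in CPM, by cell class, with 1 bar for each library and no error bars because each bar is a single library. Glycolysis bars of the library labelled STK25 wKO stand above those of the library labelled WT in each class shown, while the hypoxia bars of macrophages are the tallest in both libraries, at 1348 and 1396 CPM.

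The summed level of the hypoxia members did not share this pattern. Their sum was 655 CPM in the library labelled STK25 wKO and 814 CPM in the library labelled WT in epithelial cells, a log2 ratio of −0.31 (−0.34 to −0.29). Macrophages held the highest sum of the classes plotted, 1348 CPM in the library labelled STK25 wKO and 1396 CPM in the library labelled WT, with a log2 ratio of −0.05 whose interval (−0.14 to 0.04) spanned 0, and which lay between −0.34 and 0.36 over the alternatives tried. In neutrophils the sums were 868 CPM in the library labelled STK25 wKO and 854 CPM in the library labelled WT (0.02, −0.16 to 0.21). The neutrophil ratio was 0.41 as a mean within subclusters, 0.24 with cells thinned to 1000 UMIs and 0.20 less the median of all genes. Counts of members differed from the sums in some classes. In macrophages 9 of 11 measured hypoxia members were higher in the library labelled STK25 wKO, where 43.0% of all genes were (median log2 ratio 0.42 against −0.11). In T or NK cells 11 of 13 were higher, where 51.1% of all genes were (0.44 against 0.02). The T or NK sum had a ratio of 0.14 (0.07 to 0.20), which was not seen within the largest clusters of these cells. It was −0.09 (−0.41 to 0.22) in cluster 0, −0.14 (−0.22 to −0.06) in cluster 1 and 0.03 (−0.20 to 0.26) in cluster 18. In neutrophils 5 of 11 were higher, where 41.1% of all genes were.

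Over all epithelial cells, Slc2a1, Hk2 and Pfkfb3, which act at the entry of glucose and its commitment, were lower in the library labelled STK25 wKO, and the lower enzymes were level or slightly higher. The median log2 ratio of all genes in these cells was −0.14, so small negative values lay near it. Slc2a1, the main glucose transporter of many dividing cells, had 107 CPM (104 to 110) in the library labelled STK25 wKO and 161 CPM (156 to 166) in the library labelled WT, a log2 ratio of −0.59 (−0.65 to −0.53). As a mean within epithelial subclusters the Slc2a1 ratio was 0.02, although the gene was lower in 9 of 14. Without the unnamed subclusters 1 and 8, which had markers of other classes among their leading genes, the mean was −0.15. The share of epithelial cells with a UMI of Slc2a1 was 37.6% in the library labelled STK25 wKO and 36.9% in the library labelled WT, and 10.1% and 12.6% with cells thinned. Hk2, the inducible hexokinase, had 98.1 CPM (95.3 to 101) in the library labelled STK25 wKO and 195 CPM (190 to 201) in the library labelled WT. Its log2 ratio of −0.99 (−1.05 to −0.93) lay just short of the 2-fold limit used for calls, which also needed 50 or more UMIs in the pair of libraries and a level of 20 CPM or more in either. With every cell thinned to 1000 UMIs, 10.1% (9.26 to 10.99) of epithelial cells in the library labelled STK25 wKO and 15.2% (13.8 to 16.7) in the library labelled WT had a UMI of Hk2. The same shares of B cells were 2.94% and 4.67%, so the epithelial shares stood above these. Without thinning, the epithelial shares were 38.2% in the library labelled STK25 wKO and 41.5% in the library labelled WT, at median depths of 4250 and 3837 UMIs.

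Pfkfb3, whose enzyme makes the fructose bisphosphate that switches on phosphofructokinase, was at 12.9 CPM in the library labelled STK25 wKO and 25.5 CPM in the library labelled WT (log2 ratio −0.98, −1.15 to −0.81). Its relative Pfkfb4 had 12.6 and 16.9 CPM (−0.43), the constitutive hexokinase Hk1 49.6 and 62.2 CPM (−0.33), and the phosphofructokinase Pfkp 80.2 and 107 CPM (−0.42), in the libraries labelled STK25 wKO and WT in turn. The other phosphofructokinases differed less, with Pfkl at 78.8 CPM in the library labelled STK25 wKO and 81.4 CPM in the library labelled WT, and Pfkm, the muscle form, at 2.13 and 2.37 CPM. Gpi1, which turns glucose phosphate into fructose phosphate, had 281 CPM in the library labelled STK25 wKO and 292 CPM in the library labelled WT. Less the median of all genes, Gpi1 and Pfkl stood at 0.09 and 0.10, so among these upper steps Hk2 and Pfkfb3 lay farthest below it.

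The 5 members with the most UMIs over all cells, Gapdh, Ldha, Aldoa, Pkm and Eno1, all act from aldolase onwards. Gapdh, which oxidises glyceraldehyde phosphate, had 3435 CPM (3418 to 3452) in the library labelled STK25 wKO and 2806 CPM (2784 to 2828) in the library labelled WT, a log2 ratio of 0.29 (0.28 to 0.31). Without Gapdh the epithelial glycolysis ratio was 0.01, so this gene carried most of the difference in the sum. Aldoa, the main aldolase of the tumour cells, had 844 CPM (835 to 852) in the library labelled STK25 wKO and 776 CPM (765 to 788) in the library labelled WT. Eno1, an enolase, had 679 CPM (672 to 687) in the library labelled STK25 wKO and 638 CPM (628 to 648) in the library labelled WT. Pkm, a pyruvate kinase, had 744 CPM (736 to 752) in the library labelled STK25 wKO and 717 CPM (706 to 728) in the library labelled WT. The log2 ratios of these enzymes, 0.12 for Aldoa, 0.09 for Eno1 and 0.05 for Pkm, were small beside that of Hk2.

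Ldha, the lactate dehydrogenase subunit favoured in glycolytic cells, had 999.8 CPM (991 to 1009) in the library labelled STK25 wKO and 958 CPM (945 to 971) in the library labelled WT (log2 ratio 0.06). Slc16a3, the lactate exporter, had 51.4 CPM in the library labelled STK25 wKO and 56.5 CPM in the library labelled WT (−0.14, −0.23 to −0.04). Among the remaining members, Pgam1, a phosphoglycerate mutase, had 248 CPM in the library labelled STK25 wKO and 202 CPM in the library labelled WT (0.30), and Pgk1, a phosphoglycerate kinase, 331 and 298 CPM in the same order (0.15). Tpi1, which interconverts the triose phosphates, had 512 CPM in the library labelled STK25 wKO and 495 CPM in the library labelled WT, and the minor aldolase Aldoc 16.8 and 20.5 CPM. Of the 19 glycolysis members, 8 were higher and 11 lower in the library labelled STK25 wKO, with a median log2 ratio of −0.05. Over the 16731 genes with at least 20 UMIs in epithelial cells, the median was −0.14 and 37.5% were higher in the library labelled STK25 wKO.

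**Figure D2:**
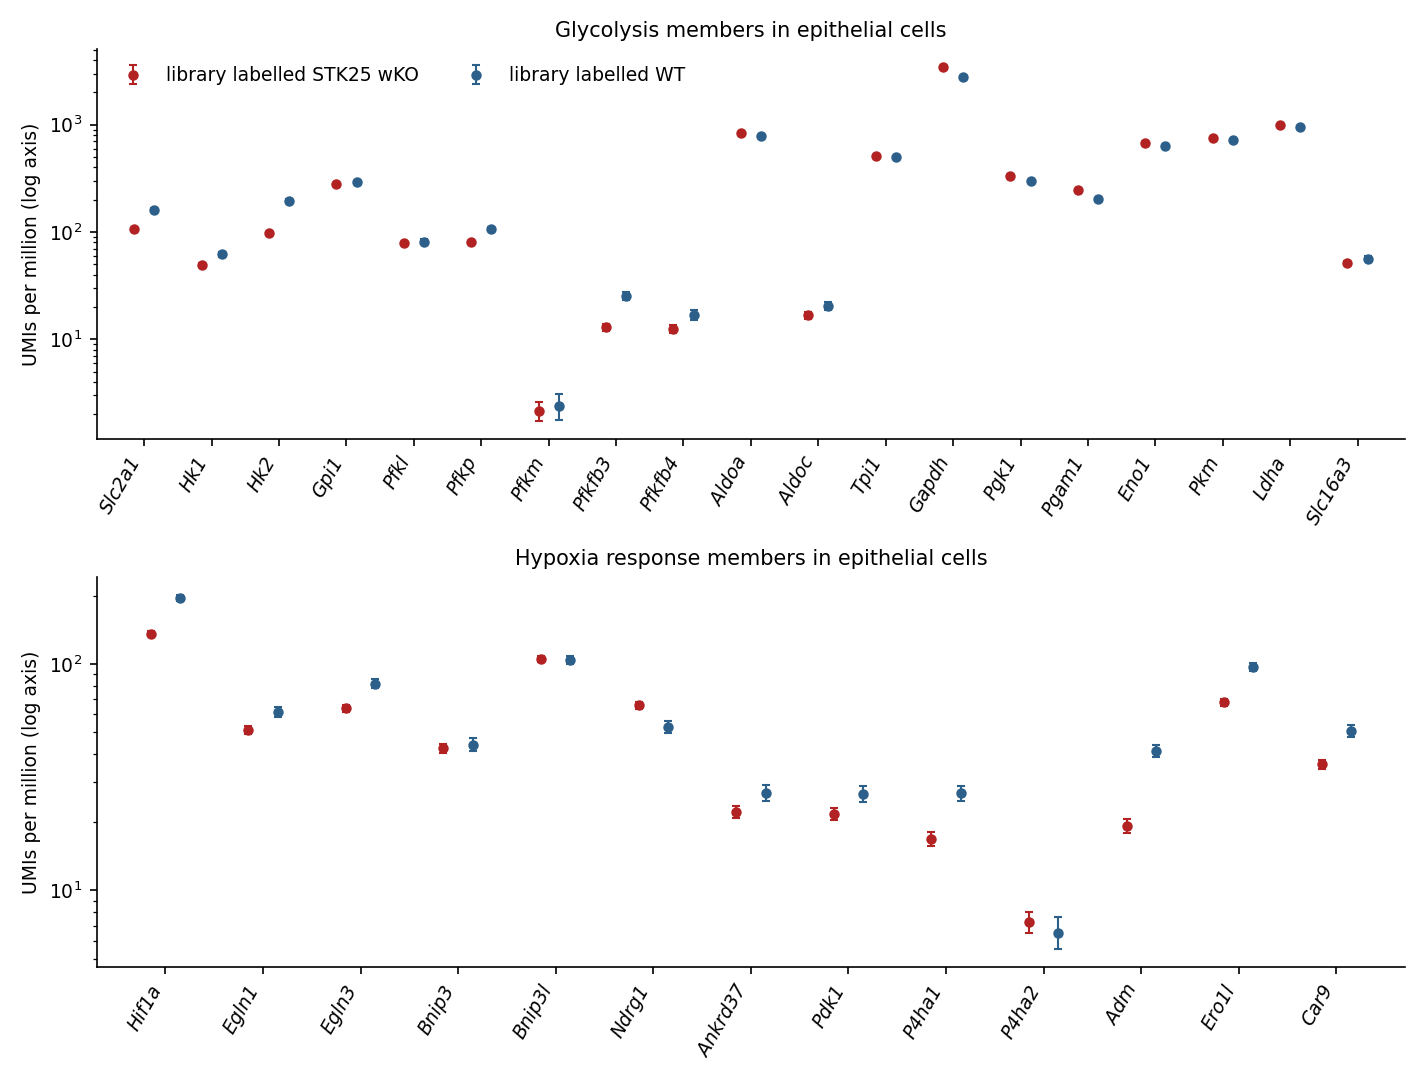
Level of each member in epithelial cells in CPM on a log axis, glycolysis members above and hypoxia response members below, as 1 point per library with its 95% exact Poisson interval. The points of the 2 libraries stand apart for Hk2 (98.1 and 195 CPM), Slc2a1 (107 and 161 CPM) and Adm (19.3 and 41.3 CPM) and lie close together for Ldha, Pkm and Tpi1.

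Of the 13 hypoxia members, 10 were lower and 3 higher in epithelial cells of the library labelled STK25 wKO. Their median log2 ratio was −0.29. Most genes were also lower there: 37.5% of all genes were higher, and the median of all genes was −0.14. Less that median the ratio of the hypoxia sum was −0.17. Adm, which encodes the vessel-dilating peptide adrenomedullin, was the member called at 2-fold. It had 19.3 CPM (18.0 to 20.6; 870 UMIs) in the library labelled STK25 wKO and 41.3 CPM (38.7 to 44.0; 940 UMIs) in the library labelled WT, a log2 ratio of −1.10 (−1.23 to −0.96). Of the 32 members, 29 passed the limits on UMIs and CPM, of which 1 was lower by 2-fold and 0 higher, against 0.737% of 7458 genes lower and 0.791% higher in this class. The value depended on the cells kept: it was −0.29 once the cells with the highest doublet scores were removed and the rest clustered anew, and −0.48 with every cell thinned to 1000 UMIs. In thinned cells, 1.40% (1.09 to 1.78) of epithelial cells in the library labelled STK25 wKO and 1.86% (1.37 to 2.46) in the library labelled WT had a UMI of Adm. These shares overlapped, and both lay within the intervals for B cells, 0.90% (0.25 to 2.30) and 0.99% (0.40 to 2.03), so at this depth they were not told apart from background.

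Hif1a, the oxygen-regulated transcription factor subunit, had 136 CPM (132 to 139) in the library labelled STK25 wKO and 195 CPM (190 to 201) in the library labelled WT (log2 ratio −0.53). Both hydroxylases that mark its protein for degradation were lower too. Egln1 had 51.2 CPM in the library labelled STK25 wKO and 61.3 CPM in the library labelled WT (−0.26), and Egln3, itself raised by hypoxia, had 63.6 and 81.8 CPM (−0.36). P4ha1, a collagen prolyl hydroxylase, had 16.9 CPM in the library labelled STK25 wKO and 26.8 CPM in the library labelled WT (−0.67, −0.82 to −0.51), while its paralogue P4ha2 had 7.24 and 6.50 CPM (0.16, −0.13 to 0.45). Ero1l, an oxidase that forms disulphide bonds in the endoplasmic reticulum, had 67.7 CPM in the library labelled STK25 wKO and 96.5 CPM in the library labelled WT (−0.51). Car9, a carbonic anhydrase that exports acid and is a textbook hypoxia marker, had 36.0 and 50.6 CPM in the same order (−0.49, −0.60 to −0.38).

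Apart from P4ha2, the hypoxia members higher in the library labelled STK25 wKO were Ndrg1 and, at a log2 ratio of 0.02, Bnip3l. Ndrg1, a stress-induced gene of differentiating epithelium, had 65.6 CPM (63.2 to 68.0) in the library labelled STK25 wKO and 52.6 CPM (49.7 to 55.7) in the library labelled WT (log2 ratio 0.32). Bnip3 and Bnip3l, receptors that direct mitochondria to autophagy, were near level, at 42.5 and 105 CPM in the library labelled STK25 wKO and 44.0 and 104 CPM in the library labelled WT. Pdk1, a kinase that keeps pyruvate out of mitochondria, had 21.7 CPM in the library labelled STK25 wKO and 26.6 CPM in the library labelled WT (−0.29). Ankrd37, a small target of HIF, had 22.2 and 27.0 CPM (−0.28).

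The promoters of the members often held the core letters that HIF is known to bind. RefSeq promoter windows of GRCm38.p6, from 250 bases before to 50 bases after each start, were found for 29 of the 32 members (42 windows), and not for Ndrg1, Bnip3l and Ero1l. The letters ACGTG, on either strand, stood in a window of 21 of the 29 members (72.4%) and in 57.1% of their windows, against 19.6% of all 32851 windows. GCGTG, a variant of the motif that can share letters with it where both occur, stood in 57.1% of the member windows, against 32.4% of all windows. Member windows were also richer in CG dinucleotides, with a median of 20.5 against 7 over all windows, and both motifs hold a CG. The stretches below are those of members with a large difference in some class or a central place in the pathway, with 1 match in capitals (CACGT and CACGC are the same motifs read on the other strand). A match is a description of the letters and not evidence of binding.
Slc2a1, chr4:119108697-119108726 (+), match 36 bases before the start: gtcccgccccggACGTGctccccaggcccc
Hk2, chr6:82774489-82774518 (−), match 52 bases before the start: aatgagcacatcCACGTcactgtccggggc
Pfkfb3, chr2:11502125-11502154 (−), match 52 bases before the start: acccttctctccACGTGaaagggggctggg
Ldha, chr7:46845758-46845787 (+), match 34 bases before the start: cgtgggttcccgCACGTccgctgggctccc
Slc16a3, chr11:120949037-120949066 (+), match 14 bases before the start: gtgacgtgcgcgggggACGTGccgcgcgac
Egln3, chr12:54204086-54204115 (−), match 229 bases before the start: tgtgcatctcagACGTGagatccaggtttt
Bnip3, chr7:138909596-138909625 (−), match 107 bases before the start: cgcacgcgccgcACGTGccacacgctcccc
P4ha1, chr10:59323266-59323295 (+), match 16 bases before the start: ggtgtgacagagcgCACGTagcgagggctg
Adm, chr7:110627591-110627620 (+), match 54 bases before the start: ggcaaatctgacCACGCccaccgtccgccc
Car9, chr4:43506996-43507025 (+), match 18 bases before the start: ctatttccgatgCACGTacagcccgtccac

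Either motif stood in a window of 27 of the 29 members (93.1%), against 46.7% of all genes, so carrying one did not set the members printed here apart from the other members. In the windows of Gpi1 and Tpi1 neither motif was found. The genes themselves lie apart: Adm at chromosome 7, 110627661 to 110629820, Hk2 at chromosome 6, 82725025 to 82774454, Slc16a3 at chromosome 11, 120948480 to 120960868, and P4ha1 at chromosome 10, 59323296 to 59373304, in the same build.

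Within the epithelium, the members varied more between states than between libraries. The cells were divided into 17 subclusters without using the members, and named from fixed markers. Over both libraries, the summed glycolysis level ran from 2354 CPM in a stem-like subcluster (number 0, led by Mdga2 and Cdh13) to 15000.5 CPM in an inflammatory subcluster (number 3, led by Ly6d, Ly6m and Saa1). A goblet subcluster (number 9, led by Kcnma1) had 2417 CPM and a transit subcluster (number 4, led by Htr4) 2722 CPM. Depth moved with this order: subclusters 2, 3, 5, 10 and 12 had median depths between 10470 and 16340 UMIs in each library and glycolysis sums of 7062 to 15000.5 CPM, whereas subclusters 0, 4 and 9 had 2876 to 4298 UMIs and Malat1 at 1.26% to 2.20% of UMIs. The absorptive colonocyte subclusters broke this order. Number 6 had 7170 CPM at median depths of 2242 UMIs in the library labelled STK25 wKO and 2809 UMIs in the library labelled WT, and number 13 had 10397.5 CPM at 3096 and 4106 UMIs. The part of depth and nuclear RNA in the glycolysis order was not tested.

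The hypoxia sum followed another order. It was highest in the inflammatory subcluster 7 (led by Abtb2 and March3, 1457 CPM over both libraries), in the absorptive colonocyte subcluster 13 (led by Aqp8 and Cyp2c55, 1264 CPM) and in the inflammatory subcluster 3 (1259 CPM). It was lowest in the transit subcluster 12 (408 CPM), the tuft subcluster 14 (420 CPM) and the transit subcluster 10 (441 CPM). Absorptive colonocytes are the cells nearest the gut lumen. Subcluster 7 was high in the hypoxia sum but not in glycolysis (4628 CPM), and its cells were shallow, with median depths of 3497 UMIs in the library labelled STK25 wKO and 3108 UMIs in the library labelled WT.

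**Figure D3:**
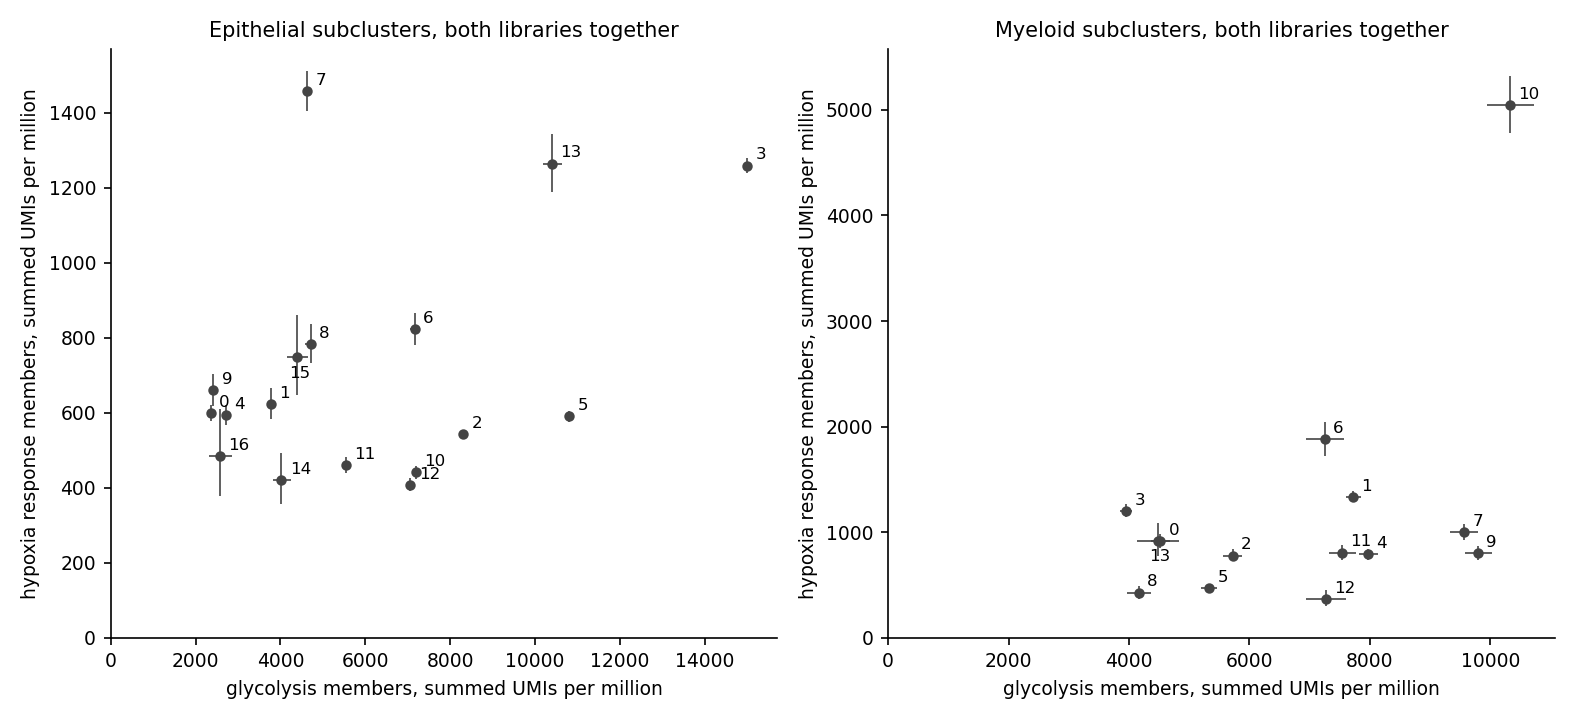
Summed glycolysis level (x axis) against summed hypoxia response level (y axis), both in CPM over both libraries together, for each epithelial subcluster (left) and myeloid subcluster (right), numbered as in the text, with 95% exact Poisson intervals. Epithelial subcluster 3 stands alone at 15000.5 CPM of glycolysis, and myeloid subcluster 10 stands alone at 5044 CPM of hypoxia members.

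Between the libraries, 14 epithelial subclusters held at least 30 cells of each. They included 2 unnamed ones with markers of other classes among their leading genes, number 1 (led by Lyz2 and Apoe, with 784 cells in the library labelled STK25 wKO and 34 cells in the library labelled WT) and number 8. The glycolysis sum was higher in the library labelled STK25 wKO in 10 of the 14, with a mean log2 ratio of 0.20, and the hypoxia sum in 5 of the 14, with a mean of −0.09. Without numbers 1 and 8, the glycolysis sum was higher in 8 of 12 with a mean of 0.10, and the hypoxia sum in 3 of 12 with a mean of −0.16. Within subclusters the hypoxia ratio was thus nearer to 0 than the −0.31 over all epithelial cells. For 6 of the 32 members (Slc2a1, Gpi1, Pfkl, Pfkm, Slc16a3 and Ero1l) the mean within subclusters was above 0 where the value over all epithelial cells was below 0. Of these, Pfkm and Slc16a3 remained above 0 without numbers 1 and 8, and Slc2a1 was then at −0.15. Hk2 was lower in the library labelled STK25 wKO in 11 of the 13 subclusters that measured it, Pfkfb3 in 11 of 12 and P4ha1 in 10 of 13. Their mean log2 ratios within subclusters were smaller, at −0.51, −0.56 and −0.39, against −0.99, −0.98 and −0.67 over all epithelial cells. In epithelial cells these genes were not taken singly through the removal of the highest doublet scores. Gapdh and Pgam1 were each higher in 12 of 14. Adm was lower in 5 of 8, and Slc2a1 in 9 of 14. Hif1a was lower in 9 of 14 and Car9 in 9 of 12.

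The inflammatory subcluster 3, of 487 cells in the library labelled STK25 wKO and 236 cells in the library labelled WT, held large differences. Hk2 had 206 CPM (196 to 216) there in the library labelled STK25 wKO and 475 CPM (454 to 497) in the library labelled WT, a log2 ratio of −1.21 (−1.31 to −1.11). Slc2a1 had 235 CPM (224 to 246) in the library labelled STK25 wKO and 367 CPM (349 to 386) in the library labelled WT (−0.64). Adm had 58.1 CPM (52.8 to 63.8) in the library labelled STK25 wKO and 170 CPM (158 to 183) in the library labelled WT (−1.55), and this subcluster supplied 699 of the 940 epithelial Adm UMIs in the library labelled WT. Pfkfb3 had 16.0 and 51.3 CPM (−1.69) and Car9 72.8 and 141 CPM (−0.95), in the libraries labelled STK25 wKO and WT in turn. Ndrg1 went the other way, at 56.4 CPM in the library labelled STK25 wKO and 33.6 CPM in the library labelled WT (0.75). The glycolysis sum of the subcluster was 14668 CPM in the library labelled STK25 wKO and 15615 CPM in the library labelled WT, a log2 ratio of −0.09 that was small beside those of the entry steps and of most hypoxia members named here.

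Subcluster 7 resembled it in part. Hk2 had 299 CPM there in the library labelled STK25 wKO and 514 CPM in the library labelled WT, but Hif1a had 496 CPM in the library labelled STK25 wKO and 405 CPM in the library labelled WT. In the transit subcluster 12 the hypoxia sum was 363 CPM in the library labelled STK25 wKO and 594 CPM in the library labelled WT (−0.71), with only 58 cells in the library labelled WT. The unnamed subcluster 8 (led by Dock2 and Ptprc, a pan-leukocyte gene) ran the other way, with a glycolysis log2 ratio of 1.07 over 68 cells in the library labelled STK25 wKO and 392 cells in the library labelled WT. The goblet subcluster 11 was captured at unequal depth, with a median of 12083 UMIs in the library labelled STK25 wKO and 1373 UMIs in the library labelled WT, and a glycolysis ratio of 0.53.

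**Figure D4:**
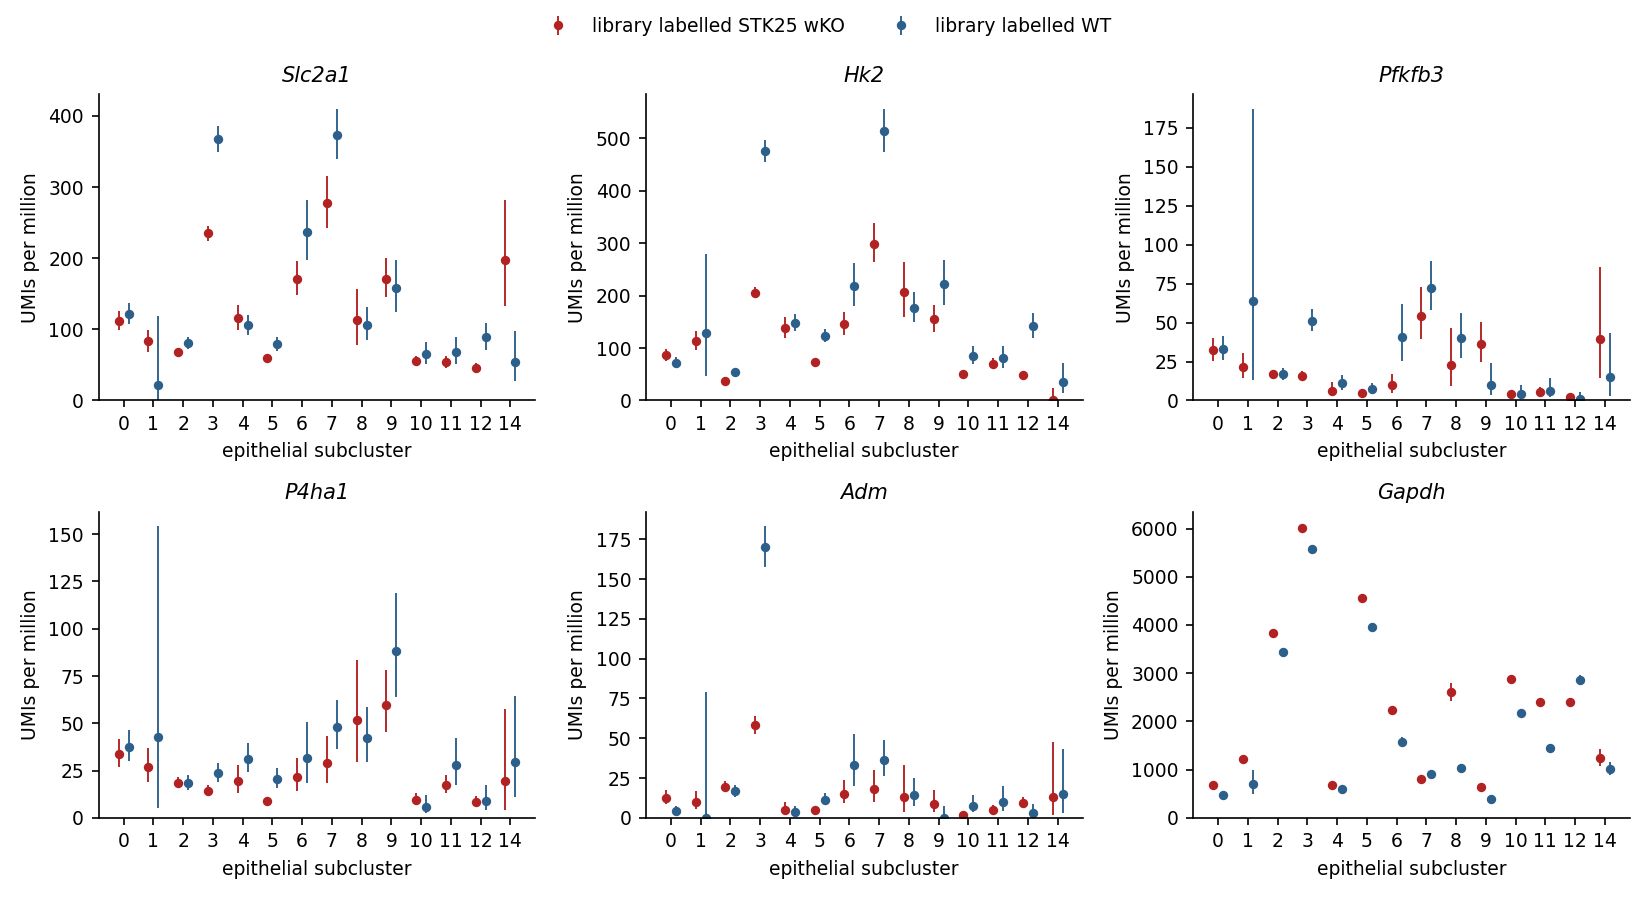
Level of 6 members in CPM in the 14 epithelial subclusters with at least 30 cells of each library, as 1 point per library with its 95% exact Poisson interval. Of the subclusters plotted, number 7 is highest for Hk2 and Slc2a1 and number 3 for Adm in both libraries, and in subcluster 3 the point of the library labelled STK25 wKO lies below that of the library labelled WT (206 and 475 CPM for Hk2).

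Neutrophils are short-lived cells that rely on glycolysis for their ATP. Their glycolysis members leaned to the library labelled STK25 wKO: 14 of the 18 measured were higher and 4 lower, with a median log2 ratio of 0.67 against −0.18 over 9568 genes. Of the 32 members, 25 passed the limits for a 2-fold call, of which 3 were higher and 1 lower, against 6.31% of 5879 genes called higher and 11.5% called lower. The cells differed in number, since the library labelled STK25 wKO held 1623 neutrophils and the library labelled WT 239. Gapdh had 2326 CPM (2276 to 2376) in the library labelled STK25 wKO and 951 CPM (847 to 1064) in the library labelled WT, a log2 ratio of 1.29 (1.12 to 1.46). Without the S100a8-high subclusters, which held 363 and 52 cells of the library labelled STK25 wKO and 1 and 0 cells of the library labelled WT, the Gapdh ratio was 1.06 and the ratio of the glycolysis sum 0.66. Unnamed myeloid subclusters were not left out there. Among them was number 11 (led by Clu, Dmbt1 and Krt36), with 2 epithelial markers among its leading genes. It held 64 cells of the library labelled STK25 wKO and 3 cells of the library labelled WT. Its part in these values was not tested.

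Bnip3 had 69.1 CPM (60.8 to 78.3) in neutrophils of the library labelled STK25 wKO and 28.2 CPM (12.9 to 53.5) in the library labelled WT, where it rested on 9 UMIs (log2 ratio 1.30, 0.35 to 2.44). Pfkfb4 had 44.8 CPM (38.2 to 52.3) in the library labelled STK25 wKO and 21.9 CPM (8.81 to 45.1; 7 UMIs) in the library labelled WT, and its interval spanned 0 (1.03, −0.04 to 2.37); thinned to 1000 UMIs per cell it was 0.28. Egln3 went the other way, with 63.1 CPM (55.1 to 71.8) in the library labelled STK25 wKO and 163 CPM (122 to 213) in the library labelled WT, a log2 ratio of −1.37 (−1.81 to −0.90). In mice, EGLN3 is known to support the survival of neutrophils under hypoxia. Its transcript was below the WT level in all 3 tissue neutrophil subclusters, at 56.6, 67.5 and 93.8 CPM in the library labelled STK25 wKO, against 148, 195 and 156 CPM in the library labelled WT. Those WT values rested on few Egln3 UMIs, from 153, 46 and 32 cells with 161702, 77065 and 51428 UMIs of all genes. The Egln3 ratio of the neutrophil class lay between −1.59 and −1.19 over the alternatives tried.

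Slc16a3, the lactate exporter, was highest in neutrophils in both libraries, at 585 CPM in the library labelled STK25 wKO and 322 CPM in the library labelled WT. In macrophages it had 130 CPM (119 to 141) in the library labelled STK25 wKO and 60.5 CPM (45.9 to 78.2) in the library labelled WT, a log2 ratio of 1.10 (0.71 to 1.52). In T or NK cells it had 36.6 CPM (29.99 to 44.2) in the library labelled STK25 wKO and 10.7 CPM (8.29 to 13.5) in the library labelled WT (1.78, 1.33 to 2.24). In blood endothelial cells it had 38.7 CPM (29.9 to 49.3) in the library labelled STK25 wKO and 12.7 CPM (5.79 to 24.0; 9 UMIs) in the library labelled WT (1.61, 0.60 to 2.80). Because neutrophil RNA was also higher in these classes, Slc16a3 was set against it. Neutrophils of the library labelled STK25 wKO had 0.60 UMIs of Slc16a3 per 100 UMIs of S100a8, S100a9 and Retnlg, while T or NK cells had 2.86 (2.34 to 3.47), blood endothelial cells 3.78 (2.91 to 4.85) and macrophages 10.6 (9.65 to 11.6). In the library labelled WT the ratios were 2.81 in neutrophils, 11.5 in T or NK cells, 17.3 in blood endothelial cells and 92.1 in macrophages. B cells of the library labelled STK25 wKO had 0.65 (0.32 to 1.16), close to neutrophils. In the library labelled WT, however, B cells had 9.96 (6.26 to 15.2), above neutrophils and close to T or NK cells. The neutrophil value depended on the cells taken, for the tissue neutrophils alone, without the S100a8-high subclusters, had 1.42 (1.33 to 1.53) in the library labelled STK25 wKO and 3.18 (2.57 to 3.90) in the library labelled WT. In the library labelled STK25 wKO, the 2.86 in T or NK cells lay above this 1.42. In the library labelled WT, the 11.5 in T or NK cells lay above this 3.18. The part of neutrophil RNA in the Slc16a3 values was not tested.

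Macrophages gave 13 higher and 5 lower of 18 measured glycolysis members in the library labelled STK25 wKO, with a median log2 ratio of 0.65 against −0.11 over 11013 genes. Of the 32 members, 27 passed the limits, of which 2 were called higher and 1 lower at 2-fold, against 3.12% of 6985 genes higher and 6.76% lower. Ero1l had 341 CPM (323 to 359) in the library labelled STK25 wKO and 166 CPM (141 to 194) in the library labelled WT, a log2 ratio of 1.04 (0.80 to 1.29). The Ero1l ratio was 0.08 without a small state, subcluster 10, and the ratio of the hypoxia sum was then −0.34. Subcluster 10 was picked for this because Ero1l was among its leading genes. A fall in the Ero1l ratio was therefore fixed by the choice. P4ha1 had 162 CPM (150 to 175) in the library labelled STK25 wKO and 410 CPM (370 to 452) in the library labelled WT, a log2 ratio of −1.34 (−1.52 to −1.15), and −0.87 with cells thinned. In the C1q macrophage subcluster 3 (led by Tanc2 and Mrc1) P4ha1 had 254 CPM (222 to 289) in the library labelled STK25 wKO and 612 CPM (541 to 691) in the library labelled WT.

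The small state was a monocyte or macrophage subcluster (number 10) led by Nos2, Timp1 and Ero1l, with 89 cells in the library labelled STK25 wKO and 2 cells in the library labelled WT. Nos2 makes nitric oxide in activated macrophages. In the library labelled STK25 wKO its cells had 2813 CPM (2611 to 3026) of Ero1l, 781 CPM (677 to 897) of Ndrg1, 527 CPM of Pfkfb3 and 570 CPM of Slc2a1. Its hypoxia sum, 5044 CPM over both libraries, was the highest of any myeloid subcluster. The next was the tissue neutrophil subcluster 6 (led by Gbe1, Gdf15 and Csf1), with 2089 CPM over 151 cells in the library labelled STK25 wKO and 933 CPM over 32 cells in the library labelled WT, a log2 ratio of 1.16. Ero1l had 814 CPM (703 to 938) there in the library labelled STK25 wKO and 272 CPM (149 to 457) in the library labelled WT. The glycolysis sum was higher in the library labelled STK25 wKO in all 7 myeloid subclusters with at least 30 cells of each library, with a mean log2 ratio of 0.69. Aldoa, Gapdh, Pgk1, Pgam1, Eno1 and Ldha were each higher in 7 of 7, but Hk2 was lower in 5 of 6 and Pfkp in 6 of 7.

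T or NK cells showed 17 higher and 2 lower of the 19 glycolysis members, with a median log2 ratio of 0.72 against 0.02 over 12851 genes. Of the 32 members, 24 passed the limits, of which 2 were called higher and 2 lower, against 3.53% of 7413 genes higher and 5.23% lower. Gapdh had 1582 CPM (1537 to 1628) in the library labelled STK25 wKO and 734 CPM (713 to 755) in the library labelled WT (1.11). Pdk1 had 22.9 CPM (17.8 to 29.1) in the library labelled STK25 wKO and 69.6 CPM (63.2 to 76.4) in the library labelled WT, a log2 ratio of −1.60 (−1.995 to −1.23). P4ha1 had 98.2 CPM (87.1 to 110.2) in the library labelled STK25 wKO and 211 CPM (200 to 223) in the library labelled WT (−1.10, −1.29 to −0.92). In thinned cells, 2.29% (1.54 to 3.28) of T or NK cells had a UMI of Pdk1 in the library labelled STK25 wKO and 7.09% (6.19 to 8.07) in the library labelled WT, while B cells had 0.90% and 2.83%. The library labelled STK25 wKO held 1436 T or NK cells and the library labelled WT 3914, and they fell into different clusters. Cluster 0 (led by Skap1 and Themis) held 80 cells of the library labelled STK25 wKO and 2609 cells of the library labelled WT, while cluster 1 (led by Il17a and Ctla4) held 1144 and 1128. Within cluster 1, Pdk1 had 20.8 CPM (15.3 to 27.7) in the library labelled STK25 wKO and 21.6 CPM (15.9 to 28.8) in the library labelled WT, a log2 ratio of −0.06 (−0.67 to 0.56). The Pdk1 difference over all T or NK cells was thus not seen there. P4ha1 had 95.2 CPM in cluster 1 of the library labelled STK25 wKO and 187 CPM in that of the library labelled WT (−0.98, −1.22 to −0.73). The glycolysis sum there was 4656 CPM in the library labelled STK25 wKO and 2980 CPM in the library labelled WT (0.64), and Gapdh, at 1669 and 944 CPM (0.82), no longer reached 2-fold. The hypoxia sum in cluster 1 was 1092 CPM in the library labelled STK25 wKO and 1203 CPM in the library labelled WT (−0.14).

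In fibroblasts the lone call was Adm, with 43.2 CPM (35.7 to 51.9; 115 UMIs) in the library labelled STK25 wKO and 21.1 CPM (15.1 to 28.7; 40 UMIs) in the library labelled WT, a log2 ratio of 1.04 (0.51 to 1.59) and the opposite of its direction in epithelial cells. Of the 32 members, 26 passed the limits, of which 1 was higher and 0 lower, against 2.42% of 7941 genes higher and 1.41% lower. P4ha2, which modifies collagen, was highest in fibroblasts in both libraries, at 35.7 CPM in the library labelled STK25 wKO and 34.3 CPM in the library labelled WT. In blood endothelial cells 25 members passed the limits, of which Slc16a3 was the 1 called higher and 0 were called lower, against 2.59% of 7036 genes higher and 2.2% lower. Ndrg1 was highest in lymphatic endothelial cells in both libraries, at 263 CPM in the library labelled STK25 wKO and 333 CPM in the library labelled WT, and next highest in blood endothelial cells at 194 and 180 CPM.

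The smaller stromal and dendritic classes added a few calls. In lymphatic endothelial cells 20 of the 32 members passed the limits, of which 4 were called higher (Gapdh, Pgk1, Eno1 and Ero1l) and 1 lower (Adm, at 43.2 CPM in the library labelled STK25 wKO and 86.5 CPM in the library labelled WT), against 4.6% of 5040 genes higher and 2.14% lower. In pericytes or smooth muscle 15 passed, of which 1 was higher (Pgam1, at 144 and 67.4 CPM) and 0 lower, against 4.53% of 3178 genes higher and 4.56% lower. In dendritic cells 20 passed, of which 2 were higher (Tpi1, and Hk2 at 71.4 CPM in the library labelled STK25 wKO and 30.3 CPM in the library labelled WT) and 0 lower, against 2.87% of 4956 genes higher and 11.1% lower. Hk2 thus leaned in opposite directions in dendritic and epithelial cells. Slc16a3 was also at 26.7 CPM in lymphatic endothelial cells of the library labelled STK25 wKO, against 3.76 CPM from 2 UMIs in the library labelled WT.

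**Figure D5:**
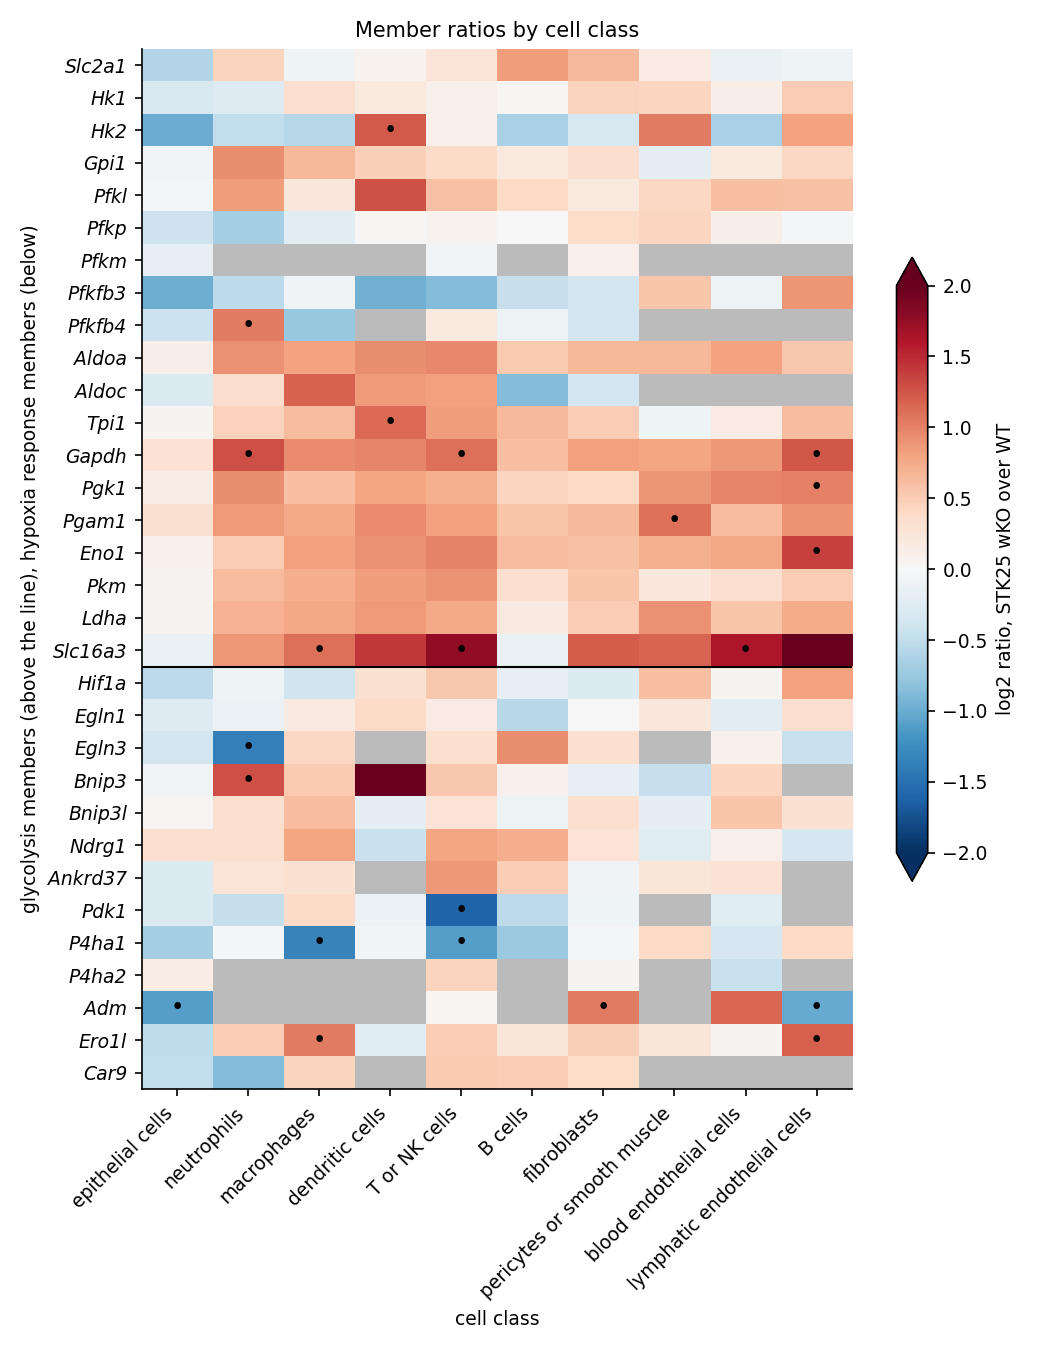
Log2 ratio of the library labelled STK25 wKO over the library labelled WT for each member (rows) in each cell class (columns), red where higher and blue where lower in the library labelled STK25 wKO. Black dots mark 2-fold calls and grey marks fewer than 20 UMIs or none in a library. Red fills the rows of Gapdh, Aldoa, Eno1 and Pgam1 outside the epithelium, while the epithelial column is pale for these and blue for Hk2, Pfkfb3 and Adm.

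Other genes of the same pathways were read from fixed lists. In epithelial cells, 8 of 18 measured glycolysis genes outside the members were higher and 10 lower, and 6 of 22 measured hypoxia pathway genes were higher and 16 lower in the library labelled STK25 wKO, with median log2 ratios of −0.02 and −0.15 and none called at 2-fold. Over all genes 37.5% were higher and the median was −0.14, so the hypoxia pathway list lay close to it. Vegfa, the vessel growth factor raised by HIF, had 32.01 CPM in the library labelled STK25 wKO and 47.2 CPM in the library labelled WT, a log2 ratio of −0.56. Epas1, a second HIF subunit, had 29.7 and 39.1 CPM (−0.40). The nuclear genes of the respiratory chain, which burn the products of pyruvate, were higher in the library labelled STK25 wKO for 77 of 77 in epithelial cells (median 0.40), 72 of 77 in macrophages (0.48) and 75 of 77 in T or NK cells (0.53). In these classes the respiratory genes therefore lay on the same side as the lower glycolytic enzymes.

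In macrophages, Cited2, an inhibitor of HIF, had 129 CPM in the library labelled STK25 wKO and 62.6 CPM in the library labelled WT (1.04), and Gys1, a glycogen synthase, 26.1 and 7.30 CPM (1.84). Bpgm, which makes bisphosphoglycerate, had 14.1 CPM in the library labelled STK25 wKO and 35.5 CPM in the library labelled WT (−1.33), and Pdk3, a kinase of the Pdk1 family, 25.4 and 57.4 CPM (−1.18). Dusp1, a gene that cell dissociation is known to induce, had 1115 CPM in the library labelled STK25 wKO and 551 CPM in the library labelled WT (1.02). In neutrophils, Adpgk, an ADP-dependent glucokinase, had 57.0 CPM in the library labelled STK25 wKO and 6.26 CPM (2 UMIs) in the library labelled WT (3.19, 1.32 to 6.24). Gbe1, a glycogen branching enzyme, had 41.5 CPM in the library labelled STK25 wKO and 93.9 CPM in the library labelled WT (−1.18). The genes S100a8, S100a9 and Retnlg passed the 2-fold limit in epithelial cells, macrophages and neutrophils, with log2 ratios of 2.05 to 4.36.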

How the data were processed

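The values deposited by the authors were whole-number UMI counts, not normalised, made with Cell Ranger 7.1.0 per the file headers and with the mm10 build per the labels; Seurat is named in the submitters' processing notes with no role. Counts were used as deposited. Cells under 200 genes or over 25% mitochondrial UMIs were left out, which removed 3 and 282 cells in the library labelled STK25 wKO and 2 and 270 cells in the library labelled WT and left 65805551 and 38271600 UMIs. Cells were clustered on 1997 variable genes, the members left out, with 30 principal components, 20 neighbours and Leiden resolution 1 (0.8 for subclusters), with no batch correction. A cluster was named from at least 3 fixed markers, each found in at least 10% of its cells and at least 5 points above the median cluster. Class names rebuilt in this way may differ from those of the study. Unnamed clusters held 2078 cells in the library labelled STK25 wKO and 1898 cells in the library labelled WT. Scrublet called 0 doublets in either library, so none were removed, and an alternative removed the 1542 cells (11.1%) and 1204 cells (9.81%) with the highest scores.

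UMIs were summed by class or subcluster and library and given as CPM with exact Poisson intervals, log2 ratios with exact conditional binomial intervals and shares of cells with Clopper-Pearson intervals, all at 95%. With 1 library per group no model was fitted. A gene was measured with at least 20 UMIs over both libraries. The log2 ratio, its interval and the 2-fold call were tested on simulated counts with known folds, and the other steps were not. Python 3.11.15, numpy 2.4.6, scipy 1.17.1, pandas 2.3.3, scanpy 1.11.5, leidenalg 0.10.2, scikit-learn 1.9.0 and matplotlib 3.10.9 were used. The rule for named genes took the members and the listed genes called at 2-fold in the main classes. Values in T or NK, dendritic, pericyte and lymphatic endothelial cells, values by subcluster, and Vegfa and Epas1 were named after their values were seen. The members and lists were chosen with earlier results of these data known. Promoter sequences came from RefSeq for GRCm38.p6.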

Additional observations from a re-analysis of the deposited data

Results flagged for a closer look

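Adm differed in direction between cell classes under the same contrast. Its log2 ratio of the library labelled STK25 wKO over the library labelled WT was −1.10 in epithelial cells and −1.003 in lymphatic endothelial cells, but 1.04 in fibroblasts. With the highest doublet scores removed it was −0.29 in epithelial cells and 0.82 in fibroblasts. The lymphatic value, just past the 2-fold limit, was not taken through the alternatives. With 1 library per group, this difference between classes was not tested.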

How the results depend on the processing

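Values are log2 ratios of the library labelled STK25 wKO over the library labelled WT. Of the sums, the macrophage one for hypoxia changed sign. Sizes moved throughout, and the cause was not tested. For the epithelial glycolysis sum (0.12), the ratio was 0.26 at Leiden resolution 2, 0.24 with the members among the variable genes, 0.10 with a cell filter of 500 genes and 10% mitochondrial UMIs, 0.19 without the highest doublet scores, 0.26 as a mean over cells, 0.26 with cells thinned to 1000 UMIs, 0.26 less the median of all genes, 0.15 without mitochondrial and ribosomal protein genes in the total, 0.20 within subclusters, 0.10 within those with no leading marker of another class and 0.013 without Gapdh. For the epithelial hypoxia sum (−0.31), the ratio was −0.19 at resolution 2, −0.23 with the members among the variable genes, −0.23 without the highest doublet scores, −0.15 as a mean over cells, −0.17 thinned, −0.17 less the median, −0.28 without mitochondrial and ribosomal protein genes, −0.086 within subclusters and −0.155 within those with no leading marker of another class. The count of epithelial members higher was 11 of 32, 15 less the median and 17 within subclusters, so single members changed sign (4 and 6 of 32).

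For the macrophage glycolysis sum (0.69), the mean over cells gave 0.92, thinning 0.88, the median of all genes taken off 0.80, subclusters 0.59 and leaving out Gapdh 0.57. The macrophage hypoxia sum (−0.05) was 0.35 as a mean over cells, 0.36 thinned, 0.064 less the median, −0.29 within subclusters and −0.34 without the Nos2-led subcluster, so it has no stable direction. For the neutrophil glycolysis sum (0.80), the values were 0.67 with no cell filter, 0.67 as a mean over cells, 0.69 thinned, 0.97 less the median, 0.64 within subclusters, 0.66 without the S100a8-high subclusters and 0.60 without Gapdh. The neutrophil hypoxia sum (0.02) was 0.24 thinned and 0.41 within subclusters. Single genes that moved were Adm in epithelial cells (−0.96 less the median, −0.48 thinned, −0.29 without doublet scores), Adm in fibroblasts (1.65 thinned), Ero1l in macrophages (1.78 thinned, 0.08 without the Nos2-led subcluster), P4ha1 in macrophages (−0.87 thinned) and Gapdh in neutrophils (1.06 to 1.47). Of the genes called at 2-fold in the classes of the naming rule, none changed sign under its alternatives. The settings that left out subclusters or Gapdh were chosen after seeing the data. The Nos2-led subcluster was picked because Ero1l was among its leading genes, so the Ero1l value without it is no independent check. No paired analysis was possible because each group has 1 library. Intervals cover counting error only, and differences between mice, tumours and captures cannot be told apart from genotype.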
